A study of Ovis aries with 57 samples.

Results

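Transcription factors known from work on the outer epithelium of the mammalian blastocyst, the trophectoderm, were followed in RNA-seq of sheep conceptuses and of the uterine epithelium they lie against. The 10 factors (CDX2, GATA2, GATA3, TEAD4, EOMES, TFAP2A, TFAP2C, HAND1, ELF3 and KLF5) were taken by symbol, and all 10 had a row among the 25174 genes used. Whole conceptuses had been flushed from the uterine horn of pregnant ewes on day 12 (n = 5), day 14 (n = 4), day 16 (n = 4) and day 20 (n = 4) of pregnancy. Luminal epithelium (LE, the lining that faces the conceptus) and glandular epithelium (GE, the uterine glands) had been cut by laser from frozen uterine sections, with 4 libraries of each on days 10, 12, 14, 16 and 20, which made 57 libraries in all. All animals were pregnant, the labels name no treatment and no altered gene, and breed and age were not stated in the sources used here. Conceptus RNA came from whole tissue, so embryo, trophoblast, yolk sac and any adhering cells were measured together, and fewer cells of a type cannot be told apart from less RNA per cell.

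In the sheep the hatched blastocyst grows into an ovoid, then a tube and then a long filament before it attaches, and nearly all of that growth is growth of the trophectoderm and the endoderm beneath it. The trophectoderm secretes interferon tau, the signal by which ruminants recognise pregnancy, and later gives rise to the epithelium of the placenta. In the mouse, TEAD4 works at the start of the lineage with the Hippo coactivator YAP1 and turns on CDX2 and GATA3, while EOMES is tied to trophoblast stem cells. GATA2 and GATA3, and the AP-2 factors TFAP2A and TFAP2C, sustain the trophoblast programme and the genes of its products. HAND1 is a basic helix-loop-helix factor of differentiating trophoblast that is also made by extraembryonic mesoderm. ELF3, an ETS factor, and KLF5, a zinc-finger factor, are made by many epithelia.

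Levels are given as RPKM, reads scaled to a gene's exon length and to the mapped reads of the library, as the authors deposited them. Conceptus libraries held 10419633 to 20532398 gene reads, and exon reads recovered from the RPKM steps numbered 1928578 to 7583442 per LE library and 1756591 to 6370067 per GE library. Per the protocol in the labels, RNA of day 12 conceptuses, LE and GE was amplified before sequencing and RNA of later conceptuses was not. The label of each day 12 conceptus, however, names the ribosome-depleted RNA of the later days. In day 12 conceptuses, exon reads recovered from the RPKM steps made up 38.44 to 46.49% of gene reads. In later conceptuses RPKM was proportional to gene reads, so gene reads were taken as exon reads there and no exon share was measured. Preparation and day cannot be told apart between day 12 and day 14, nor preparation and tissue between conceptus and epithelium from day 14 on. Summed RPKM was 158575 to 198605 in day 12 conceptuses and 437557 to 533902 in later ones, against 118767 to 301559 in LE and 113266 to 214040 in GE. A gene that passed the test is called higher or lower below, which means a Benjamini-Hochberg adjusted p under 0.05 over all genes tested, from limma on log2(RPKM + 1) wherever day 12 or epithelium enters and from edgeR's quasi-likelihood test on gene reads among days 14, 16 and 20. The TMM scaling factors of the edgeR fit were 0.784 to 0.8259 on day 14 and 1.079 to 1.1706 on days 16 and 20. RPKM as deposited does not carry these factors, so mean RPKM and the edgeR change can differ in size or sign. Mean TFAP2C RPKM, for example, was 68.56 on day 14 and 74.22 on day 16, where the edgeR log2 change was -0.28. The p-values measure the spread between these libraries.

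Day 12 conceptus libraries held little RNA of most of these factors and much of KLF5, while from day 14 on KLF5 was a small part of their sum. KLF5 made up 62.09% of the summed RPKM of the 10 factors on day 12 on average (48.50 to 71.66% over 5 libraries), and 1.54% on day 14 (0.86 to 2.12%), 1.96% on day 16 and 3.41% on day 20. TFAP2C took the largest mean share on day 14 (33.32%, 25.82 to 37.74%). GATA3 took it on day 16 (30.98%, 27.55 to 34.56%), and HAND1 on day 20 (31.33%, 27.61 to 42.02%). These shares are ratios within a library and do not depend on how libraries were scaled.

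**Figure D1:**
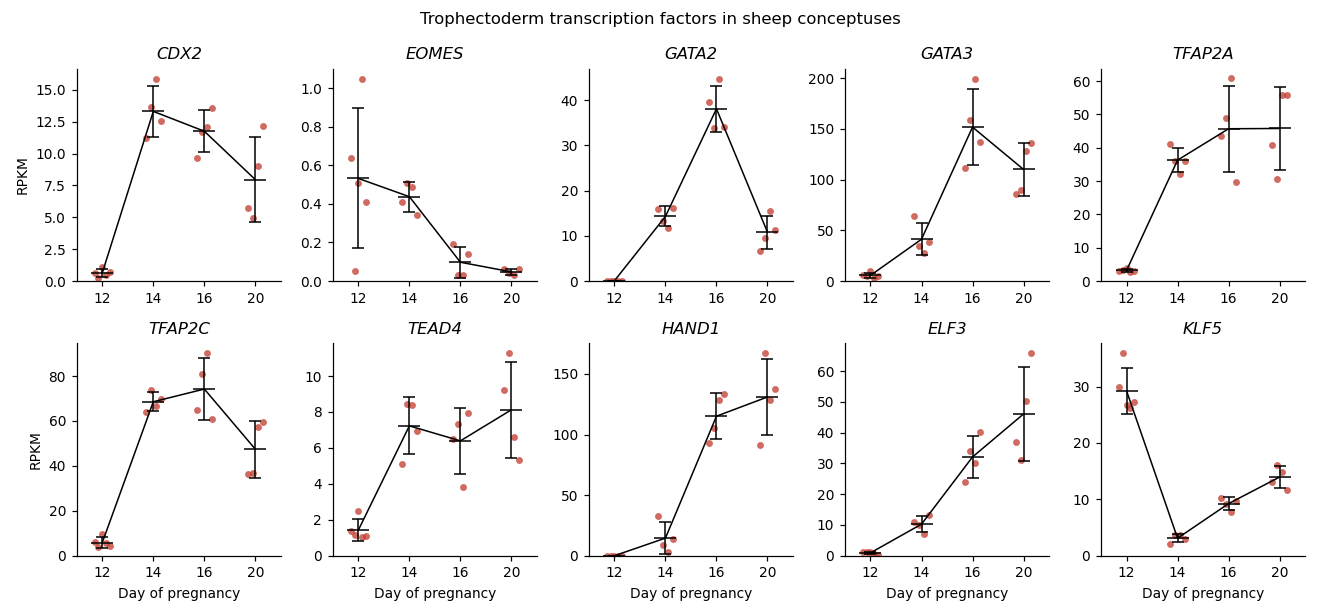
RPKM of each of the 10 factors (one panel each, linear axes that differ between panels) by day of pregnancy in conceptuses, with dots for libraries and bars for the mean and SD (5 libraries on day 12, 4 on each later day). KLF5 has its highest libraries on day 12 (26.13 to 35.99 RPKM), GATA2 on day 16 (33.91 to 44.76 RPKM), and HAND1 is above 90 RPKM in every library of days 16 and 20.

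**Figure D2:**
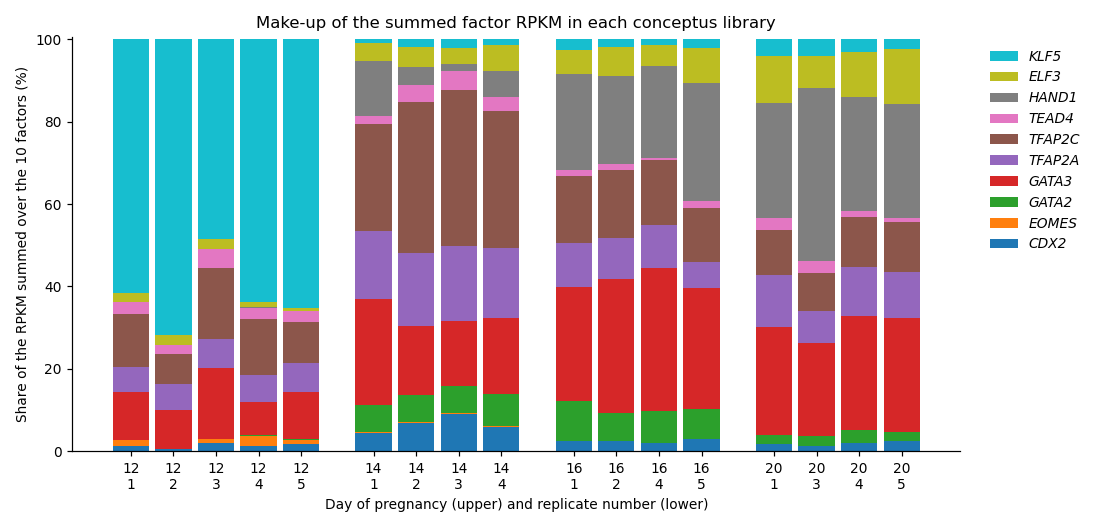
Share of the summed RPKM of the 10 factors (percent, stacked) held by each factor in each conceptus library, ordered by day. KLF5 holds 48.50 to 71.66% in the 5 day 12 libraries and at most 2.12% in the 4 day 14 libraries, where TFAP2C holds 25.82 to 37.74%.

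TEAD4, CDX2 and EOMES stand nearest to the founding of the lineage in the mouse. TEAD4, the DNA-binding partner of YAP1, measured 1.39, 1.13, 2.47, 1.05 and 1.09 RPKM on day 12, 5.10, 8.46, 8.41 and 6.94 on day 14, 6.48, 7.32, 3.82 and 7.95 on day 16, and 9.22, 11.30, 6.62 and 5.35 on day 20. All later libraries lay above all day 12 libraries, and the later days overlapped one another. TEAD4 was higher on day 14 than on day 12 by 1.77 on the log2(RPKM + 1) scale (SE 0.22, limma adjusted p = 1.08e-06), and by 0.92 after TMM scaling. In edgeR's fit it was not called on day 16 against day 14 (log2 change -0.58, adjusted p = 0.0844), on day 20 against day 16 (0.37, adjusted p = 0.277) or on day 20 against day 14 (-0.20, adjusted p = 0.509).

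CDX2, the caudal-type homeobox factor of trophectoderm, was at 0.64, 0.23, 1.10, 0.49 and 0.73 RPKM on day 12 and at 11.20, 13.64, 15.89 and 12.52 RPKM on day 14. It was at 9.64, 11.66, 12.12 and 13.60 RPKM on day 16 and at 5.70, 4.93, 9.05 and 12.15 RPKM on day 20. Day 14 and day 12 libraries did not overlap, and the means after day 14 were lower with wide overlap. CDX2 was higher on day 14 than on day 12 (log2 difference 3.14, SE 0.21, limma adjusted p = 1.58e-10; 2.50 after TMM scaling) and lower on day 20 than on day 14 (log2 change -1.10, SE 0.26, edgeR adjusted p = 0.0024). The steps between were not called, with a log2 change of -0.58 on day 16 against day 14 (adjusted p = 0.0701) and -0.51 on day 20 against day 16 (adjusted p = 0.127). The first step passed at -0.53 (edgeR adjusted p = 0.00954) when days 14 and 16 were fitted alone, and the second at -0.81 (adjusted p = 0.0148) without day 20 replicate 5, its highest library.

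EOMES, a T-box factor, stayed near the floor of the assay. Day 12 libraries held 0.64, 0.05, 0.51, 1.05 and 0.41 RPKM, from 110 exon reads over 5 libraries. Day 14 libraries held 0.41, 0.51, 0.49 and 0.34 RPKM, those of day 16 held 0.19, 0.03, 0.03 and 0.14, and those of day 20 held 0.06, 0.04, 0.03 and 0.06 RPKM. Only 13 exon reads over 4 libraries lay behind the day 16 values and 6 behind those of day 20. EOMES was lower on day 16 than on day 14 (log2 change -2.49, SE 0.49, edgeR adjusted p = 0.00143) and on day 20 than on day 14 (-3.42, SE 0.55, adjusted p = 0.00016), with no overlap of libraries. It was below the filter in the limma fits, and an exact two-sided permutation test gave p = 0.667 for a difference of -0.06 on the log2(RPKM + 1) scale between day 14 (n = 4) and day 12 (n = 5). With no filter limma gave the same difference (adjusted p = 0.819), but edgeR on the recovered exon reads called EOMES lower on day 14 (log2 change -1.49, adjusted p = 0.0255).

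GATA2 and GATA3, zinc-finger factors that bind the same core sequence, followed different courses. GATA3 measured 5.62, 4.73, 9.49, 3.23 and 4.79 RPKM on day 12 and 64.15, 34.08, 27.80 and 38.72 on day 14. It reached 110.95, 159.13, 199.59 and 137.20 RPKM on day 16, and 85.45, 89.80, 128.21 and 136.41 on day 20. Days 12, 14 and 16 did not overlap, whereas days 16 and 20 did. Among the genes detected in a library, GATA3 stood at percentile 63.4 to 78.7 on day 12 and 96.4 to 97.7 on day 16. GATA3 was higher on day 14 than on day 12 by 2.68 (log2(RPKM + 1), SE 0.26, limma adjusted p = 3.53e-08; 1.58 after TMM scaling), and higher on day 16 than on day 14 by 1.47 (log2 change, SE 0.29, edgeR adjusted p = 0.00126). Day 20 against day 16 was not called (-0.42, adjusted p = 0.244).

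GATA2 was almost without exon reads on day 12, at 0.10, 0.00, 0.03, 0.08 and 0.06 RPKM. It stood at 15.99, 13.35, 11.63 and 16.20 RPKM on day 14, 39.54, 33.91, 44.76 and 34.18 on day 16, and 6.74, 9.54, 15.50 and 11.39 on day 20. Every day 16 library lay above every library of the other days. GATA2 was higher on day 16 than on day 14 (log2 change 1.01, SE 0.23, edgeR adjusted p = 0.00312), lower on day 20 than on day 16 (-1.78, SE 0.23, adjusted p = 0.000233), and lower on day 20 than on day 14 (-0.77, SE 0.23, adjusted p = 0.0109). This last call was lost with limma on RPKM (-0.42, adjusted p = 0.0811). The ratio of GATA2 to GATA3 RPKM within a library ran from 0.00 to 0.0251 on day 12, 0.249 to 0.418 on day 14, 0.213 to 0.356 on day 16 and 0.0788 to 0.121 on day 20, so day 20 libraries lay below those of days 14 and 16.

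The day 12 level of GATA2 depends on which reads are counted. Of 736 GATA2 gene reads in the 5 day 12 libraries, 6 were exon reads (0.82%), and of 510 CDX2 gene reads, 81 were (15.88%). Over genes with at least 50 gene reads the median was 43.84%. The other factors were nearer to it or above it, at 51.36% for GATA3, 49.65% for TEAD4, 41.41% for TFAP2A, 46.84% for TFAP2C, 52.1% for KLF5, 67.9% for EOMES and 82.41% for ELF3. RPKM uses exon reads, so day 12 values leave out part of the reads assigned to every factor, with the largest parts for GATA2 and CDX2. The difference of 3.85 for GATA2 between day 14 and day 12 (log2(RPKM + 1), SE 0.17, limma adjusted p = 7.29e-13; 3.61 after TMM scaling) is a difference in exon reads.

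TFAP2A and TFAP2C, AP-2 family members that bind the same sites as dimers, both stood high in every library after day 12. TFAP2C measured 6.17, 3.70, 9.53, 5.57 and 4.21 RPKM on day 12 and 64.01, 73.88, 66.60 and 69.76 on day 14. It measured 64.91, 80.99, 90.27 and 60.72 RPKM on day 16 and 36.21, 36.78, 57.15 and 59.54 on day 20. All later libraries exceeded all day 12 libraries, and day 20 lay below day 16 without overlap. TFAP2C was higher on day 14 than on day 12 by 3.40 (log2(RPKM + 1), SE 0.21, limma adjusted p = 7.33e-11; 2.29 after TMM scaling). It was lower on day 20 than on day 16 by -0.61 (log2 change, SE 0.19, edgeR adjusted p = 0.0252), a call that was lost when day 16 replicate 2 or 4, or day 20 replicate 1 or 3, was left out (adjusted p = 0.0632 to 0.0679). Day 20 against day 14 was called too (-0.89, SE 0.19, adjusted p = 0.00141), and day 16 against day 14 was not (-0.28, adjusted p = 0.225).

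TFAP2A measured 3.00, 3.17, 3.98, 2.76 and 2.99 RPKM on day 12 and 41.07, 35.94, 32.17 and 35.94 on day 14. It measured 43.53, 48.81, 60.84 and 29.60 RPKM on day 16 and 40.82, 30.61, 55.72 and 55.94 on day 20. The 3 later days overlapped fully. TFAP2A was higher on day 14 than on day 12 by 3.16 (log2(RPKM + 1), SE 0.19, limma adjusted p = 5.15e-11; 2.12 after TMM scaling), and later log2 changes were -0.07 on day 16 against day 14 (edgeR adjusted p = 0.828), 0.04 on day 20 against day 16 (0.916) and -0.03 on day 20 against day 14 (0.917). TFAP2C RPKM was 1.56 to 2.07 times TFAP2A RPKM within day 14 libraries, 1.48 to 2.05 times within day 16 libraries and 0.887 to 1.20 times within day 20 libraries.

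HAND1 was nearly absent on day 12 and among the highest of the factors on days 16 and 20. Day 12 libraries held 0, 0, 0, 0.11 and 0 RPKM, from 2 exon reads and 5 gene reads in all. Day 14 libraries held 32.95, 9.04, 2.73 and 13.43 RPKM, those of day 16 held 93.15, 105.58, 128.24 and 133.46, and those of day 20 held 91.09, 166.91, 128.73 and 137.12. Day 14 libraries were spread widely, with an SD (13.04) near their mean (14.54), while days 16 and 20 lay wholly above them and overlapped each other. HAND1 was higher on day 14 than on day 12 by 3.51 (log2(RPKM + 1), SE 0.40, limma adjusted p = 2.66e-07; 3.32 after TMM scaling) and higher on day 16 than on day 14 by 2.57 (log2 change, SE 0.54, edgeR adjusted p = 0.00198). Day 20 against day 16 was not called (0.23, adjusted p = 0.739). The ratio of HAND1 to CDX2 RPKM within a library was 0.172 to 2.94 on day 14, 9.06 to 10.6 on day 16 and 11.3 to 33.9 on day 20.

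HAND1 is known from mesoderm as well, and of 12 listed mesoderm, vessel and blood markers tested, 9 were higher and none lower on day 16 than on day 14. Of all genes tested in that comparison, 28.1% were higher and 26.5% lower. Summed RPKM of 17 of 20 listed mesoderm, vessel and blood markers was 25.4 to 73.4 on day 12 (FOXF1, TAL1 and TBX4 at 0 throughout), 22.7 to 59.0 on day 14 (HAND2 at 0 throughout), 13.7 to 1150 on day 16 and 2750 to 9900 on day 20 (none at 0 in all libraries). On day 16 the sums were 270, 365, 13.7 and 1150 in replicates 1, 2, 4 and 5, where HAND1 was at 93.15, 105.58, 128.24 and 133.46 RPKM. Replicate 5 held both the highest sum and the highest HAND1 level of day 16. Replicate 4 had a mesoderm sum below every day 14 library and a HAND1 level above every day 14 library. On day 20 replicate 3 held both the highest sum, 9900, and the highest HAND1 level, 166.91 RPKM. The part of mesoderm in the HAND1 level was not tested.

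ELF3, the epithelial ETS factor, measured 1.15, 1.23, 1.37, 0.56 and 0.39 RPKM on day 12 and 10.92, 9.85, 7.02 and 13.25 on day 14. It measured 24.06, 34, 30.03 and 40.26 RPKM on day 16 and 36.98, 31.21, 50.30 and 65.76 on day 20. Days 12, 14 and 16 did not overlap, and days 16 and 20 did. ELF3 was higher on day 14 than on day 12 by 2.54 (log2(RPKM + 1), SE 0.23, limma adjusted p = 1.12e-08; 1.80 after TMM scaling) and higher on day 16 than on day 14 by 1.24 (log2 change, SE 0.26, edgeR adjusted p = 0.00192). Day 20 was higher than day 14 by 1.81 (SE 0.26, adjusted p = 7.43e-05), and against day 16 it was not called (0.57, adjusted p = 0.09). Without day 20 replicate 3, its lowest day 20 library, that last step passed (0.71, adjusted p = 0.0428).

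KLF5 ran the other way at the first step. Day 12 libraries held 29.91, 35.99, 26.82, 26.13 and 27.34 RPKM and day 14 libraries held 2.14, 3.61, 3.75 and 2.94. Day 16 libraries held 10.30, 9.22, 7.75 and 9.71 RPKM and day 20 libraries held 13.07, 16.09, 14.94 and 11.74. No 2 of the 4 days overlapped. Among detected genes KLF5 stood at percentile 92.0 to 95.8 on day 12, 42.5 to 50.6 on day 14, 58.3 to 66.6 on day 16 and 68.0 to 75.0 on day 20. It was lower on day 14 than on day 12 by -2.89 (log2(RPKM + 1), SE 0.14, limma adjusted p = 2.38e-12) and by -4.06 after TMM scaling. It was then higher on day 16 than on day 14 (log2 change 1.17, SE 0.17, edgeR adjusted p = 0.00021), on day 20 than on day 16 (0.63, SE 0.17, adjusted p = 0.0112) and on day 20 than on day 14 (1.80, SE 0.17, adjusted p = 3.63e-06). The ratio of KLF5 to ELF3 RPKM was 19.6 to 70.6 within day 12 libraries and 0.178 to 0.534 within all later ones.

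KLF5 is also abundant in uterine epithelium, and several of 12 listed markers of that epithelium were lower on day 14 as well. Of 11 tested on day 14 against day 12, 6 were lower, 1 was higher and 4 were not called (8 lower and none higher after TMM scaling). Of all genes tested there, 12.0% were lower and 65.7% higher. On day 20 against day 14, 10 of 11 were higher, where 37.1% of all genes were higher and 32.9% lower. ESR1 and MEP1B, which stayed low to day 20, were singled out after their values were seen. ESR1, the oestrogen receptor of uterine epithelium, measured 14.24, 24.03, 13.30, 15.96 and 26.28 RPKM in day 12 conceptuses, at most 0.14 in those of day 14, at most 1.44 in those of day 16 and at most 0.55 in those of day 20. It averaged 24.9 RPKM in day 12 LE and 38.8 in day 12 GE. MEP1B, a surface protease on the same marker list, measured 4.96 to 23.06 RPKM in day 12 conceptuses and at most 1.61 in later ones. The summed RPKM of all 12 listed uterine markers was 85.5 to 249 in day 12 conceptuses, 16.9 to 28.4 in those of day 14, 70.5 to 472 in those of day 16 and 288 to 570 in those of day 20, against 1500 to 5320 in day 12 LE and 698 to 1290 in day 12 GE. No marker of the list was at 0 in a whole conceptus group. Within day 12, KLF5 was highest in replicate 2 (35.99 RPKM), where ESR1 was at 24.03 RPKM and MEP1B at 21.88 RPKM. ESR1 and MEP1B were highest in replicate 5 (26.28 and 23.06 RPKM), where KLF5 was at 27.34 RPKM. In replicates 1, 3 and 4 ESR1 was at 13.30 to 15.96 RPKM and MEP1B at 4.96 to 8.75 RPKM. The part of uterine cells in the day 12 level of KLF5 was not tested.

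**Figure D3:**
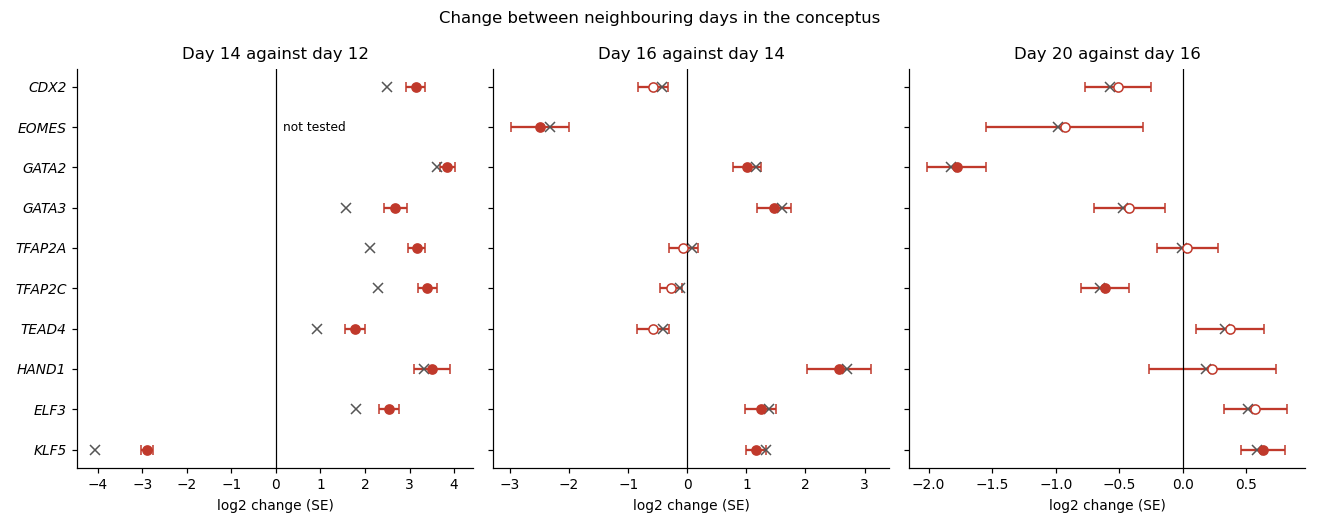
Log2 change with SE of each factor between successive conceptus days (day 14 against day 12 on log2(RPKM + 1), later steps on gene reads), filled where the adjusted p was under 0.05 and open where not, with crosses for another scaling (TMM for the first step, upper quartile for the others). KLF5 lies at -2.89 in the first step, where the 8 other factors tested lie between 1.77 and 3.85, and GATA2 lies at 1.01 and then -1.78 in the later steps.

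Across the 10, 8 factors were higher and 1 was lower on day 14 than on day 12, and EOMES was below the filter (lower in edgeR on recovered exon reads, as given above). Of all 12081 genes tested in that comparison 77.7% were called, 65.7% higher and 12.0% lower. The all-gene median was 0.94 on the log2(RPKM + 1) scale and 0.17 after TMM scaling, and higher calls made up 84.5% of all calls as deposited and 56.5% after TMM scaling. The median of the 9 factors was 3.14, all 9 kept their direction and call under TMM and upper quartile scaling, and for each of the 9 the libraries of the 2 days did not overlap, as was so for 74.1% of all genes tested. GATA2 and HAND1 reached RPKM 1 in no day 12 library, and CDX2 and ELF3 in fewer than the 4 libraries the filter needs. These factors passed the filter only through later days, which favours a higher call.

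On day 16 against day 14, 5 factors were higher (GATA2, GATA3, HAND1, ELF3 and KLF5), EOMES was lower and 4 were not called, where 54.6% of all 13202 genes tested were called (28.1% higher, 26.5% lower). Higher calls made up 51.5% of all calls in the main edgeR fit, 63.1% with upper quartile scaling and 78.7% with limma on RPKM. On day 20 against day 16, KLF5 was higher, GATA2 and TFAP2C were lower and 7 were not called, where 41.1% of all genes were called (20.6% higher, 20.5% lower). On day 20 against day 14, GATA3, HAND1, ELF3 and KLF5 were higher, CDX2, GATA2, TFAP2C and EOMES were lower, and TEAD4 and TFAP2A were not called. That comparison called 70.1% of all genes, 37.1% higher and 32.9% lower, and the factors' shares lie near these.

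In the authors' deposited table, where fold changes are signed, day 14 against day 12 stood at 83.6 for HAND1, 58.0 for GATA2, 8.49 for CDX2, 5.14 for TFAP2C, 4.96 for TFAP2A, 4.60 for ELF3, 3.25 for GATA3, 2.19 for TEAD4, -2.37 for EOMES and -20.7 for KLF5. For the 9 factors tested here the authors' deposited table gave the same sign as the limma fit. In the authors' deposited table the fold of GATA2 was 1.99 on day 16 against day 14 and -3.52 on day 20 against day 16. The FDR p-value of the authors' deposited table was above 0.05 at 4 steps called here, which were TEAD4 on day 14 against day 12 (0.276), KLF5 and EOMES on day 16 against day 14 (0.188 and 1.0) and KLF5 on day 20 against day 16 (0.661).

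By mean RPKM the order on day 12 was KLF5, TFAP2C, GATA3, TFAP2A, TEAD4, ELF3, CDX2, EOMES, GATA2 and HAND1. KLF5 stood clear of TFAP2C, and TFAP2A of TEAD4, while other neighbours overlapped. On day 14 the order was TFAP2C, GATA3, TFAP2A, HAND1, GATA2, CDX2, ELF3, TEAD4, KLF5 and EOMES, with gaps between TEAD4 and KLF5 and before EOMES. On day 16 it was GATA3, HAND1, TFAP2C, TFAP2A, GATA2, ELF3, CDX2, KLF5, TEAD4 and EOMES, with gaps between HAND1 and TFAP2C, between ELF3 and CDX2 and before EOMES. On day 20 it was HAND1, GATA3, TFAP2C, ELF3, TFAP2A, KLF5, GATA2, TEAD4, CDX2 and EOMES, with gaps between GATA3 and TFAP2C, between TFAP2A and KLF5 and before EOMES. RPKM is per exon length, so these are comparisons of levels between genes.

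**Figure D4:**
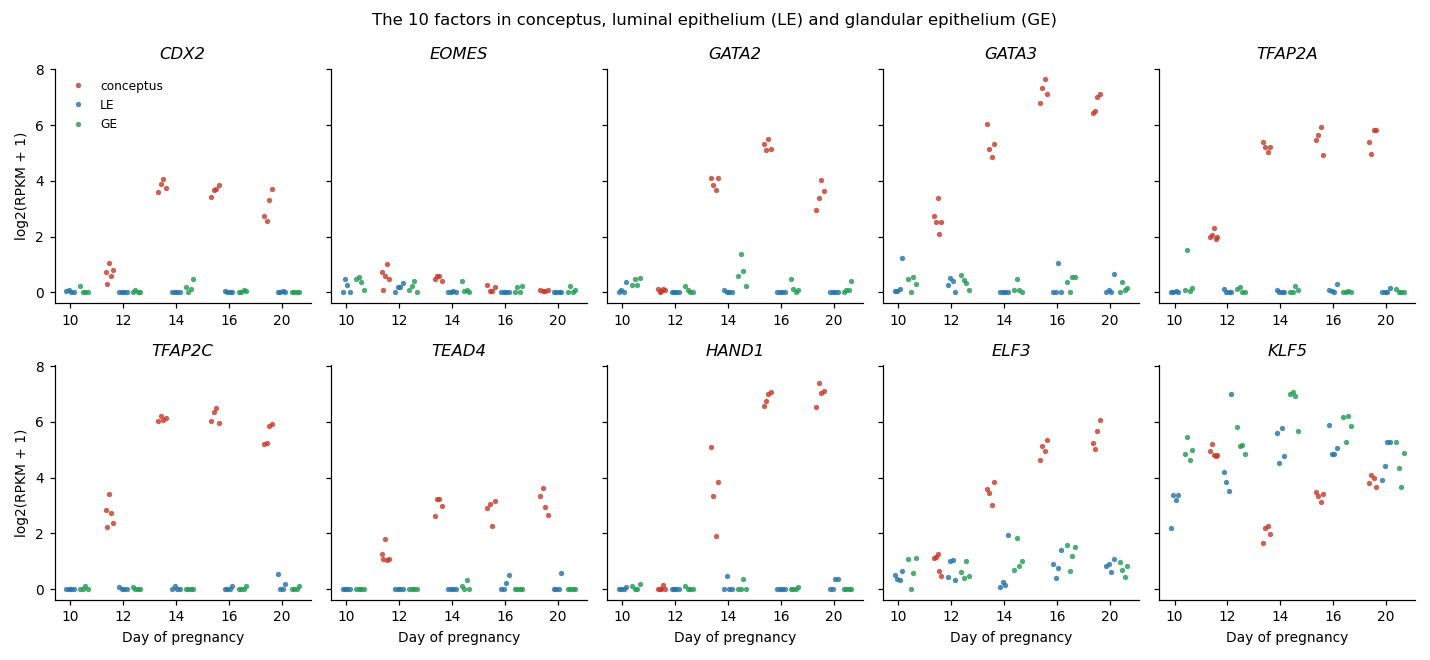
Levels of each factor on the log2(RPKM + 1) scale in conceptus, LE and GE libraries by day of pregnancy, one dot a library (4 LE and 4 GE libraries on each of 5 days, 17 conceptus libraries on 4 days). KLF5 is above 2 RPKM in every library of all 3 tissues, at 2.14 to 35.99 RPKM in conceptuses and 3.58 to 133.53 RPKM in LE and GE.

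Uterine epithelium held little RNA of 8 of the 10 factors. Over the 40 LE and GE libraries the highest values were 0.38 RPKM for CDX2, 1.61 for GATA2, 1.37 for GATA3, 0.48 for TEAD4, 0.45 for EOMES, 1.89 for TFAP2A, 0.47 for TFAP2C and 0.39 for HAND1. TEAD4 was at 0 in 35 of the 40 libraries, TFAP2C and HAND1 in 31 each, CDX2 in 29, TFAP2A in 23, GATA2 in 21, EOMES in 20 and GATA3 in 14. ELF3 reached 0.05 to 2.82 RPKM in LE (median 0.55) and 0 to 2.56 RPKM in GE (median 0.76).

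On day 12, when per the protocol conceptus and epithelial RNA had both been amplified, TFAP2C, GATA3, TFAP2A, TEAD4 and CDX2 were higher in conceptuses than in LE. The differences on the log2(RPKM + 1) scale were 2.70 for TFAP2C (SE 0.18, limma adjusted p = 1.35e-17), 2.36 for GATA3 (SE 0.26, adjusted p = 2.90e-10), 2.02 for TFAP2A (SE 0.20, adjusted p = 1.46e-11), 1.25 for TEAD4 (SE 0.16, adjusted p = 4.17e-08) and 0.69 for CDX2 (SE 0.15, adjusted p = 0.000391). The same 5 factors were higher in conceptuses than in GE, by 0.67 to 2.69. Of all 13540 genes tested 20.5% were called against LE (15.4% higher, 5.19% lower) and 28.7% against GE (13.1% higher, 15.6% lower), and the direction and call of these 5 factors held under TMM and upper quartile scaling. Higher calls made up 74.7% of all calls against LE (51.3% with upper quartile scaling) and 45.8% against GE (56.6% after TMM scaling). For each of the 5, every day 12 conceptus library lay above every day 12 LE and GE library, as was so for 22.8% of all genes against LE and 19.6% against GE. These 5 passed the filter of the 57-library fit only through conceptus libraries, which favours a higher call. With only the groups compared in the fit, 4 factors were called against LE and 4 against GE. CDX2, at 0.23 to 1.10 RPKM in day 12 conceptuses, was below the filter in that fit.

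The other factors were not called on day 12. ELF3 differed by 0.23 from LE (adjusted p = 0.72) and by 0.30 from GE (adjusted p = 0.52), and KLF5 by 0.27 from LE (adjusted p = 0.776) and by -0.34 from GE (adjusted p = 0.624). KLF5 was called higher in conceptuses than in LE (1.06, adjusted p = 0.0285) when LE day 12 replicate 15, at 126.25 RPKM, was left out. GATA2 and HAND1, near 0 in all 3 tissues on that day, differed by 0.08 or less. EOMES was 0.41 above LE and 0.39 above GE, with exact two-sided permutation p = 0.0635 and p = 0.0794 (n = 5 and n = 4, adjusted over 3 such tests to 0.119 in both). Limma with no filter called EOMES higher in conceptuses than in LE (adjusted p = 0.00641) and GE (adjusted p = 0.00598), and edgeR on recovered exon reads did not (adjusted p = 0.31 and 0.153).

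From day 14 on, 8 factors were higher in conceptuses than in LE on each day, and EOMES was below the filter. CDX2, TEAD4, TFAP2C and HAND1 reached RPKM 1 in 0 of the 40 LE and GE libraries, GATA2 and TFAP2A in 1 each and GATA3 in 2. All of these but ELF3, the remaining factor, passed the filter only through conceptus libraries, so the direction of their calls was nearly fixed in advance. Against LE, 65.7% of all genes were called on day 14 (58.6% higher, 7.1% lower), 67.7% on day 16 (61.5% higher, 6.21% lower) and 69.3% on day 20 (65.2% higher, 4.13% lower). Against GE the same 8 were higher on each day, where 64.9% of all genes were called on day 14 (50.0% higher, 14.9% lower), 69.1% on day 16 (56.9% higher, 12.2% lower) and 69.9% on day 20 (61.9% higher, 7.96% lower). The largest differences from LE on the log2(RPKM + 1) scale were those of TFAP2C on day 14 (6.09, and 5.12 after TMM scaling), GATA3 on day 16 (6.96 and 5.48) and HAND1 on day 20 (6.82 and 5.36). On day 14 every conceptus library lay above every LE and GE library in EOMES as well, and limma with no filter called it higher than in LE (0.51, adjusted p = 0.000193) and GE (0.39, adjusted p = 0.00422), while edgeR on recovered exon reads did not (adjusted p = 0.0704 and 0.482). Scaling moved the background much: the all-gene median against LE was 1.23, 1.29 and 1.40 on days 14, 16 and 20 as deposited and 0.31, 0.09 and 0.11 after TMM scaling, and against GE 0.81, 1.13 and 1.33 as deposited and 0.16, 0.12 and 0.16. Higher calls made up 89.2, 90.8 and 94.0% of all calls against LE on days 14, 16 and 20 as deposited, and 68.9, 59.6 and 62.1% after TMM scaling. Against GE they made up 77.0, 82.4 and 88.6% as deposited, and 60.4, 57.2 and 60.4% after TMM scaling.

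KLF5 was lower in conceptuses than in LE by -3.15 on day 14 (SE 0.44, limma adjusted p = 1.47e-08) and by -1.82 on day 16 (SE 0.44, adjusted p = 0.000293), on the log2(RPKM + 1) scale. Against GE it was lower by -4.65 on day 14 (adjusted p = 3.44e-13) and by -2.53 on day 16 (adjusted p = 1.74e-06). On day 20 it was not called, at -0.83 against LE (adjusted p = 0.0882; -1.10 and 0.0359 without LE day 20 replicate 17) and -0.65 against GE (adjusted p = 0.183). TMM scaling made both day 20 differences calls, at -2.53 against LE (adjusted p = 4.30e-06) and -2.10 against GE (adjusted p = 7.81e-05).

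Within the epithelium KLF5, known from the proliferating cells of many epithelia, was measured in every library. In LE it stood at 3.58, 9.47, 8.19 and 9.30 RPKM on day 10, 17.17, 13.31, 10.56 and 126.25 on day 12, 47.76, 21.82, 54.27 and 26.47 on day 14, 58.42, 27.80, 28.03 and 32.61 on day 16, and 14.10, 20.16, 37.74 and 38.12 on day 20. In GE it stood at 27.69, 42.57, 23.87 and 30.96 RPKM on day 10, 55.06, 34.49, 34.85 and 27.90 on day 12, 125.89, 133.53, 120.19 and 50.34 on day 14, 71.39, 38.21, 72.14 and 56.23 on day 16, and 37.61, 19.42, 11.64 and 28.65 on day 20. Day 10 was the lowest day in LE, and day 14 the highest in GE with 3 libraries above all GE libraries of other days. KLF5 differed among days in GE (largest difference between day means 2.12 on the log2(RPKM + 1) scale, moderated F test in limma, adjusted p = 0.00188), where 23.5% of all genes were called. It passed narrowly in LE (2.13, adjusted p = 0.0482), where 23.8% were called, and that call was lost in 15 of 20 fits that left out a library, with adjusted p up to 0.186.

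Averaged over the 5 days KLF5 was lower in LE than in GE by -0.91 (log2(RPKM + 1), SE 0.23, limma adjusted p = 0.000921), where 55.3% of all genes were called (12.7% higher, 42.6% lower). The all-gene median was -0.37 in that comparison and -0.08 after TMM scaling, higher calls made up 22.9% of all calls as deposited and 44.5% after TMM scaling, and the KLF5 call was lost after TMM scaling (-0.41, adjusted p = 0.126). The test of whether the course over days differed between LE and GE gave an adjusted p of 0.186 for KLF5 and 0.81 for ELF3. ELF3 was not called between the tissues (-0.18, adjusted p = 0.328) or among days (adjusted p = 0.848 in LE and 0.445 in GE).

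**Figure D5:**
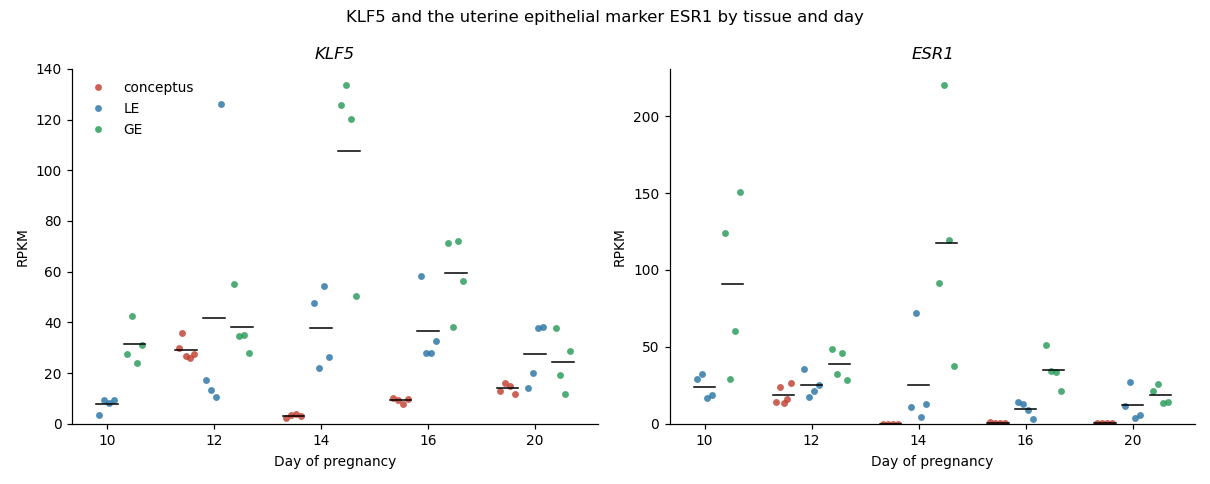
RPKM of KLF5 and of the uterine epithelial marker ESR1 by day of pregnancy in conceptus, LE and GE, one dot a library with a short bar at each mean. Both genes are high in day 12 conceptuses (KLF5 26.13 to 35.99, ESR1 13.30 to 26.28 RPKM) and low in day 14 conceptuses (KLF5 2.14 to 3.75, ESR1 at most 0.14 RPKM). ESR1 was picked after its values were seen. Of 11 listed uterine markers tested on day 14 against day 12, 6 were lower, 1 was higher and 4 were not called. The sum of the 12 listed was 85.5 to 249 RPKM in day 12 conceptuses and 288 to 570 RPKM in those of day 20.

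Other trophoblast factors made up a list of 28 genes, of which 26 were in the tables. On day 14 against day 12, 14 of 19 tested were higher, 1 was lower and 4 were not called, near the 65.7% and 12.0% of all genes. The median was 1.30 against 0.94 over all genes tested (10 higher and 3 lower after TMM scaling, median 0.64). ARID3A, a DNA-binding factor that in the mouse is needed for trophoblast, was higher by 3.60 on the log2(RPKM + 1) scale (limma adjusted p = 2.57e-13). KLF6, a zinc-finger factor, was higher by 2.65 (adjusted p = 3.51e-11), and VGLL1, a TEAD cofactor, by 3.15 (adjusted p = 6.79e-11).

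On day 16 against day 14, 5 of 21 tested were higher, 3 were lower and 13 were not called, where 28.1% of all genes were higher and 26.5% lower. The median log2 change was 0.27 against 0.05 over all genes. VGLL1 was lower (-3.77, SE 0.28, edgeR adjusted p = 4.75e-06) and had averaged 3.03 RPKM on day 12, 34.5 on day 14, 3.33 on day 16 and 5.72 on day 20. EHF, an ETS factor of epithelia close to ELF3, was higher on day 16 than on day 14 (2.41, adjusted p = 0.000249), and its means of 5.83, 0.22, 1.54 and 3.07 RPKM on days 12, 14, 16 and 20 were lowest on day 14, as those of KLF5 were. EHF was also present in LE and GE libraries of day 12, with means of 4.74 and 9.54 RPKM.

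On day 20 against day 16 the counts were again 5 higher, 3 lower and 13 not called, with a median of 0.12 against 0.01. Of all genes, 20.6% were higher and 20.5% lower there. GCM1, which in the mouse and human drives the fusing trophoblast, was higher (5.34, SE 0.66, edgeR adjusted p = 0.000157), with means of 0, 0.093, 0.308 and 11.9 RPKM over the 4 days. DLX4, a homeobox factor, was higher (1.53, adjusted p = 0.00193). ELF5, an ETS factor of mouse trophoblast stem cells, was lower (-1.85, adjusted p = 0.00281).

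Genes of the Hippo pathway and relatives of TEAD4 numbered 18 in the tables, of 20 listed. On day 14 against day 12, 10 of 18 were higher, 2 were lower and 6 were not called, near the 65.7% and 12.0% of all genes (median 1.17 against 0.94), and after TMM scaling 7 were higher and 7 lower (median 0.24). TEAD3, a TEAD4 paralog, averaged 7.87 RPKM on day 12, 53.0 on day 14, 33.5 on day 16 and 31.5 on day 20, and so stood above TEAD4 on every day. It was higher on day 14 than on day 12 by 2.61 (log2(RPKM + 1), limma adjusted p = 3.37e-10) and lower on day 16 than on day 14 (-1.06, SE 0.18, edgeR adjusted p = 0.000533). TEAD1 was lower on day 16 too (-1.32, adjusted p = 2.89e-05). WWTR1, the TAZ coactivator, was higher on that day (1.84, adjusted p = 0.000902).

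In the whole Hippo list 5 were higher and 4 lower on day 16 against day 14, with a median of 0.10. Of all genes, 28.1% were higher and 26.5% lower in that comparison. On day 20 against day 16, 9 were higher, none was lower and 9 were not called, with a median of 0.52 against 0.01 over all genes. There 20.6% of all genes were higher and 20.5% lower. SAV1 (0.99, edgeR adjusted p = 0.000287) and MOB1A (0.62, adjusted p = 0.00163), cofactors of the Hippo kinases, were among the 9. So was VGLL4 (1.06, adjusted p = 0.00144), which competes with YAP1 for TEAD factors. YAP1 itself averaged 19.5, 52.2, 56.1 and 64.5 RPKM over the 4 days.

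HAND1 binds DNA as a dimer with E proteins, which the ID proteins block. Of the 8 genes listed 7 were in the tables. On day 14 against day 12, 4 of 5 tested were higher and 1 was lower (3 higher and 1 lower after TMM scaling), where 65.7% of all genes were higher and 12.0% lower. The E protein gene TCF12 was the lower one (-1.20, log2(RPKM + 1), limma adjusted p = 9.32e-06), TCF3 was higher (1.43, adjusted p = 7.02e-09), and the inhibitor ID3 was higher (3.16, adjusted p = 2.50e-10). On day 16 against day 14, when HAND1 rose, 3 of 5 were higher and 1 was lower, where 28.1% of all genes were higher and 26.5% lower. ID1 was higher (2.13, SE 0.53, edgeR adjusted p = 0.00551), TCF3 was higher (0.59, adjusted p = 0.00759) and ID3 was lower (-0.91, adjusted p = 0.0131). On day 20 against day 16 TCF12 was called, higher by 0.93 (edgeR adjusted p = 0.00213), and the 4 others were not. Of all genes, 20.6% were higher and 20.5% lower in that comparison.

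Trophoblast products and genes of epithelial structure, 20 of 32 listed being in the tables, changed in both directions after day 14. On day 14 against day 12, 14 of 18 tested were higher, none was lower and 4 were not called (11 higher and 1 lower of 17 after TMM scaling), with a median of 1.75 against 0.94 over all genes, of which 65.7% were higher. On day 16 against day 14 the counts of 19 tested were 5 higher, 5 lower and 9 not called, and on day 20 against day 16 they were 5, 6 and 8. Of all genes, 28.1% were higher and 26.5% lower in the first of these comparisons, and 20.6% and 20.5% in the second. HSD17B1, a steroid-converting enzyme, averaged 1.22, 346, 45.9 and 3.07 RPKM on days 12, 14, 16 and 20. PAG11, a pregnancy-associated glycoprotein from a family of close copies among which reads can be split, averaged 0, 0.162, 0.286 and 49.1 RPKM. The files' interferon tau gene, TP-1, also one of a family of near copies and picked after its values were seen, measured 14.12 to 107.69 RPKM on day 12, 12518.77 to 16582.52 on day 14, 3913.60 to 10689.19 on day 16 and 55.71 to 874.41 on day 20. CDX2 had its highest mean on day 14, as TP-1 and HSD17B1 did, whereas GATA3 had its highest on day 16 and HAND1 on day 20.

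Marker RNA of other conceptus tissues differed between days, and within a day some factors were highest or lowest in the libraries at the ends of these sums. Summed RPKM of 11 of 12 listed stromal and immune markers was 33.1 to 83.9 on day 12, 26.2 to 79.0 on day 14, 21.5 to 1630 on day 16 and 4320 to 14500 on day 20, and that of 15 endoderm markers was 191 to 360, 399 to 599, 513 to 2300 and 1930 to 2820. No marker of these 2 lists was at 0 in a whole group. The sum of 11 epiblast markers was 39.1 to 81.8, 172 to 226, 82.7 to 128 and 36.3 to 67.9 RPKM on the 4 days. The stromal and mesoderm lists share COL1A1, COL3A1, VIM, POSTN and PECAM1, so their sums are not separate measures. On day 16, replicate 4 had the lowest sums for stroma (21.5), endoderm (513) and mesoderm (13.7). The same library was the highest of its day in GATA2 (44.76 RPKM), GATA3 (199.59), TFAP2A (60.84) and TFAP2C (90.27), and the lowest in TEAD4 (3.82) and KLF5 (7.75). At the other end of day 16, replicate 5 had the highest mesoderm sum (1150). That library was the highest of day 16 in CDX2 (13.60 RPKM), ELF3 (40.26), HAND1 (133.46) and TEAD4 (7.95). It was the lowest in TFAP2A (29.60) and TFAP2C (60.72). On day 20, replicate 3 had the highest stromal sum (14500), and it was the highest in TEAD4 (11.30 RPKM), KLF5 (16.09) and HAND1 and the lowest in CDX2 (4.93), ELF3 (31.21) and TFAP2A (30.61). Replicate 5, with the lowest stromal sum (4320), was the highest of day 20 in CDX2, ELF3, GATA3, TFAP2A and TFAP2C and the lowest in TEAD4 (5.35) and KLF5 (11.74). The part of these tissues in the changes between days was not tested.

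Over the 12 libraries of days 14, 16 and 20, which share their day and its makeup, the 10 strongest correlations of log2(RPKM + 1) between factors were as follows. Pearson's r was 0.93 between HAND1 and GATA3, 0.91 between HAND1 and ELF3, 0.87 between ELF3 and KLF5, 0.85 between GATA3 and ELF3, 0.84 between CDX2 and TFAP2C and 0.81 between HAND1 and KLF5. EOMES, which rests on few reads after day 14, had r = -0.92 with HAND1 and with ELF3 and r = -0.88 with GATA3 and with KLF5. Among 10162 genes searched, those most like HAND1 were GDF11 (r = 0.986), SUCLG2 (0.978) and MSRB2 (0.974), and those most like GATA3 were CAPN1 (0.986), IMPA2 (0.985) and IRX4 (0.982). MYO1E (0.985) and VASP (0.982) were among those most like ELF3, and KLF5 was nearest to DYNLT3 (0.976), PLXNB2 (0.974) and MED25 (0.974). GATA2 was nearest to PLEKHH3 (0.972), GEN1 (0.969) and ZDHHC18 (0.962), and TFAP2C to AP1M2 (0.951), ESRP1 (0.948) and DPM1 (0.937). CDX2 was nearest to PEX16 (0.947), CLPTM1 (0.943) and NUFIP2 (0.921). TEAD4 was nearest to CFL2 (0.929), EFCAB10 (0.916) and CAMKK1 (0.909). ACTR3 (0.906) and DOCK5 (0.902) were among those most like TFAP2A, and EOMES was too low to be searched.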

How the data were processed

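RNA-seq tables of 17 conceptus, 20 LE and 20 GE libraries were used. The genome build was Oar 3.1, per the submitters' processing notes. The sources used here do not state the aligner, the read counter or the annotation. The authors deposited RPKM for every library, raw gene read counts for conceptuses, and signed fold changes (treated as a score) with FDR p-values from an EDGE test, per the file headers. On days 14, 16 and 20 conceptus RPKM is proportional to the deposited gene read count, but on day 12 the gene counts include reads outside exons, so RPKM was used wherever day 12 enters. Of 25197 features, 23 whose names had turned into dates were left out.

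RPKM was tested as log2(RPKM + 1) with limma 3.58.1 and a mean-variance trend, on genes at RPKM 1 or more in at least 4 libraries of the fit. These fits held all 17 conceptus libraries for day 14 against day 12, all 57 libraries for conceptus against epithelium and the epithelial libraries for the rest. Gene read counts of days 14, 16 and 20 were tested with edgeR 4.0.16 (quasi-likelihood, TMM, filterByExpr) in R 4.3.3. EOMES, below the RPKM filter, was compared by exact permutation in SciPy 1.17.1. Whole exon reads, within 0.1 read for 100% of low values, were recovered from the RPKM steps of 18942 features. Alternatives were pseudocount 0.1, no filter, TMM and upper quartile factors on RPKM, RLE and upper quartile factors or DESeq2 1.42.0 on counts, a replicate block, other sets of libraries, each library left out in turn and edgeR on the recovered exon reads. The last of these and the test of LE against GE courses were chosen after seeing the data. The limma and edgeR fits were tested on simulated data.

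The factors and gene lists were chosen with earlier results of these data known. The text names all factors, up to 3 listed genes with the smallest adjusted p for a comparison, and the 3 genes most correlated with each factor, of which some are not reported here; mean levels of YAP1, and the values of TP-1, ESR1 and MEP1B, were added after values were seen. The labels do not say which libraries share an animal, so p-values measure the spread between libraries.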

Additional observations from a re-analysis of the deposited data

Results flagged for a closer look

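A Dixon test of the highest and lowest library was made in the 44 groups with a mean of at least 1 RPKM for a factor. It picked 4 groups, and chance alone picks about 1 in 20. TEAD4 in day 12 conceptuses had its highest library at 2.47 RPKM (replicate 3), with the other 4 at 1.05 to 1.39 RPKM. KLF5 in day 12 LE had its highest library at 126.25 RPKM (replicate 15), with the other 3 at 10.56 to 17.17 RPKM, and without it KLF5 was called higher in day 12 conceptuses than in LE. KLF5 in day 16 LE had its highest library at 58.42 RPKM, with the other 3 at 27.80 to 32.61 RPKM. KLF5 in day 14 GE had its lowest library at 50.34 RPKM, with the other 3 at 120.19 to 133.53 RPKM. The causes were not tested.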

How the results depend on the processing

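No called value changed sign. Of 1075 values with a library left out, 1052 kept their side of the threshold, and of 764 values under other settings 746 did. Of 444 values that were not called, 34 turned sign. Between LE and GE, 1 factor was called as reported, 2 with no filter (GATA2 added), and 0 with TMM or upper quartile scaling. Across LE days 1 was called as reported, 0 with no filter, TMM scaling or edgeR on recovered exon reads, and 0 to 1 with a library left out. KLF5 on day 20 was called lower in conceptuses than in LE and GE with TMM and upper quartile scaling and edgeR on exon reads, and against LE without LE day 20 replicate 17 (-1.10, adjusted p = 0.0359). With a library left out, the factors called numbered 2 to 4 on day 20 against day 16, 5 to 6 against LE on day 12 and 8 to 9 against LE on day 20.

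Genes called against LE fell to 5476 with upper quartile scaling on day 16, against 9167 as deposited, and on day 20 to 5648 with TMM, 4989 with upper quartile scaling and 5832 with edgeR, against 9384. Against GE they were 6089 on day 16 and 5900 on day 20 with upper quartile scaling, against 9356 and 9458. The cause was not tested.

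The replicate block, which adds the label's number to the fit, called 9, 7, 3 and 8 factors on day 14 against 12, 16 against 14, 20 against 16 and 20 against 14, where the fits without it called 9, 6, 3 and 8. It added CDX2 on day 16 against day 14 (-0.75, adjusted p = 0.0332) and ELF3 on day 20 against day 16 (0.67, adjusted p = 0.0151), and lost TFAP2C there (-0.55, adjusted p = 0.065). The correlation of deviations was -0.287 to 0.358 over 9 same-numbered pairs of days 14 to 20 and -0.324 to 0.346 over 39 others. These ranges overlap, and so few pairs cannot decide whether equal numbers mark pairs. EOMES after day 14 and GATA2 and HAND1 on day 12 rest on few exon reads.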
